A study of Mus musculus with 8 samples.

Results

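The genes described here are 10 ligands and receptors of the vascular endothelial growth factor (VEGF) and angiopoietin families: Vegfa, Vegfb, Vegfc, Pgf, Kdr, Flt1, Flt4, Nrp1, Nrp2 and Angpt1. They were chosen by gene symbol and not by their measured values, though with earlier results of these data known. All 10 are among the 23420 gene symbols counted. Gene expression was measured by sequencing polyadenylated RNA of uterine stromal cells from female mice, in 4 libraries with the genotype label Erbb3f/f and 4 with the genotype label Erbb3d/d. All 8 libraries carry the label day 3. By the usual convention in mouse genetics, f stands for a loxP-flanked allele and d for that allele once Cre has deleted it. This convention is not written out in the labels, which give no Cre line, no age of the animals and no event from which day 3 is counted. They also do not say whether the replicates came from separate animals, so each p-value measures only the spread between these libraries, which may be technical.

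VEGF ligands are secreted proteins that act on receptor tyrosine kinases of endothelial cells. VEGF-A, encoded by Vegfa, drives the growth and permeability of blood vessels through the receptor encoded by Kdr, while the receptor encoded by Flt1 binds VEGF-A tightly with weaker signalling and is also made as a soluble decoy. VEGF-C acts mainly on the receptor encoded by Flt4 and on the growth of lymphatic vessels, and angiopoietin-1, encoded by Angpt1, steadies vessels through the receptor encoded by Tek. The neuropilins Nrp1 and Nrp2 are co-receptors that bind VEGF ligands as well as class 3 semaphorins. In the early pregnant uterus, these pathways are known for the vessel growth and leakiness that accompany embryo attachment.

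At an adjusted p of 0.05, edgeR's quasi-likelihood test over 14598 genes called none of the 10, and 0% of all tested genes were called there. All 10 passed the filter on low counts. The log2 fold change is given as label Erbb3d/d over label Erbb3f/f. It was above 0 for 7 of the 10 and below 0 for 3, with a median of 0.25. Over all tested genes the median was -0.01 and 48.0% were above 0. At an unadjusted p under 0.05 there was 1 member, Vegfa, against 11.6% of all tested genes. DESeq2 called 0 of the 10 members and 1.78% of the genes it tested. The 4 libraries of each label did not overlap for 1 member in the higher direction, again Vegfa, beside 2.56% of all tested genes, and for 0 members in the lower direction, beside 2.48%. One gene is the smallest count that 10 members can show above 0, and nothing about the members as a group is read from it.

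The sequences just before the start sites of Vegfa, Kdr and Flt1 are shown because these genes encode VEGF-A, its main signalling receptor and the receptor also made as a decoy. They are the 250 bases upstream of the start in the RefSeq promoter table (GRCm38.p6), 5′ to 3′ on the gene's strand, at chr17:46032378-46032627 for Vegfa, chr5:75978456-75978705 for Kdr and chr5:147726012-147726261 for Flt1, all on the minus strand. Capitals mark letters that match a GC box (GGGCGG) or the form CAGGAA of an ETS core on either strand.
Vegfa: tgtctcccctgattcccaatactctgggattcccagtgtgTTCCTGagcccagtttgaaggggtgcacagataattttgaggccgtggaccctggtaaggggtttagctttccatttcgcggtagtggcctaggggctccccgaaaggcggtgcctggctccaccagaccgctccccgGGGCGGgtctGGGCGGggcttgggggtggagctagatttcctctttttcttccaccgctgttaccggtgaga
Kdr: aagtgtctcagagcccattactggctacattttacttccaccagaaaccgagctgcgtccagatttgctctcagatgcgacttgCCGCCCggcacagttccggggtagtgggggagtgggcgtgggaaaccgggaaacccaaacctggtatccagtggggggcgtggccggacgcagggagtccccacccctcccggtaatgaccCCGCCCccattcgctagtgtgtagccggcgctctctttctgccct
Flt1: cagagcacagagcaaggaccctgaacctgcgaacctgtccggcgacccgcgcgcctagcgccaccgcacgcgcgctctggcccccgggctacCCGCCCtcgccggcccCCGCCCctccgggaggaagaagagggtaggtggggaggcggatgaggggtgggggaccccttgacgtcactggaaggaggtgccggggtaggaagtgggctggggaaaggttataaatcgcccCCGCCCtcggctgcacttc
The Vegfa window held 2 GC boxes, 72 and 62 bases before the start, and 1 match to CAGGAA 210 bases before it. The Kdr window held 2 GC boxes, at 166 and 45 bases, and the Flt1 window held 3, at 158, 142 and 19 bases. A window was found for 9 of the 10 members, and each of these 9 held at least 1 GC box, which occurs in 32.7% of all 32851 windows in the table. The form ACGTG of the hypoxia response core, searched on both strands, was in 0 of the 9 windows and in 16.6% of all windows. The form GCGTG, which the Kdr window holds, and bases farther upstream were not searched. The 0 therefore does not show that these genes lack such sites. The form CAGGAA of the ETS core was in the Vegfa and Nrp2 windows and in 25.7% of all windows. Other stretches with GGAA, as in the Flt1 window, were not searched and are not marked. A match is a match of letters only.

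The libraries held 8578575 to 12854367 reads assigned to genes, and 16659 to 17868 genes had at least 1 read. Levels are normalised read counts in CPM, reads of the gene relative to the TMM-scaled library size. Erbb3 itself was not lower under the label Erbb3d/d: it had 9.64 ± 2.24 CPM (SD, n = 4) in the libraries labelled Erbb3f/f and 13.9 ± 4.56 CPM (SD, n = 4) in those labelled Erbb3d/d, with a log2 fold change of 0.53 (edgeR, adjusted p = 0.485). Counts per gene do not show whether an exon is deleted, so these levels do not tell whether the deletion took place. Directions given here follow the labels only. The labelled cell type was checked against 11 stromal markers. All 11 were measured, and their summed level was 11821 to 14363 CPM in the libraries labelled Erbb3f/f and 9865 to 13179 CPM in those labelled Erbb3d/d. The markers of other cells were present too, with summed levels in the 2 labels of 816 to 1249 and 1224 to 1918 CPM for 10 epithelial markers, 803 to 1660 and 1600 to 3793 CPM for 7 smooth muscle markers, and 791 to 1449 and 756 to 1344 CPM for 14 blood endothelial markers. Most of the blood endothelial sum came from Cd34, Sox17 and Cdh5. Their means were 465, 203 and 196 CPM for Erbb3f/f and 315, 220 and 151 CPM for Erbb3d/d. Whether other cells also made these RNAs was not tested. In bulk RNA, fewer cells of a type and less RNA per cell cannot be told apart.

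**Figure D1:**
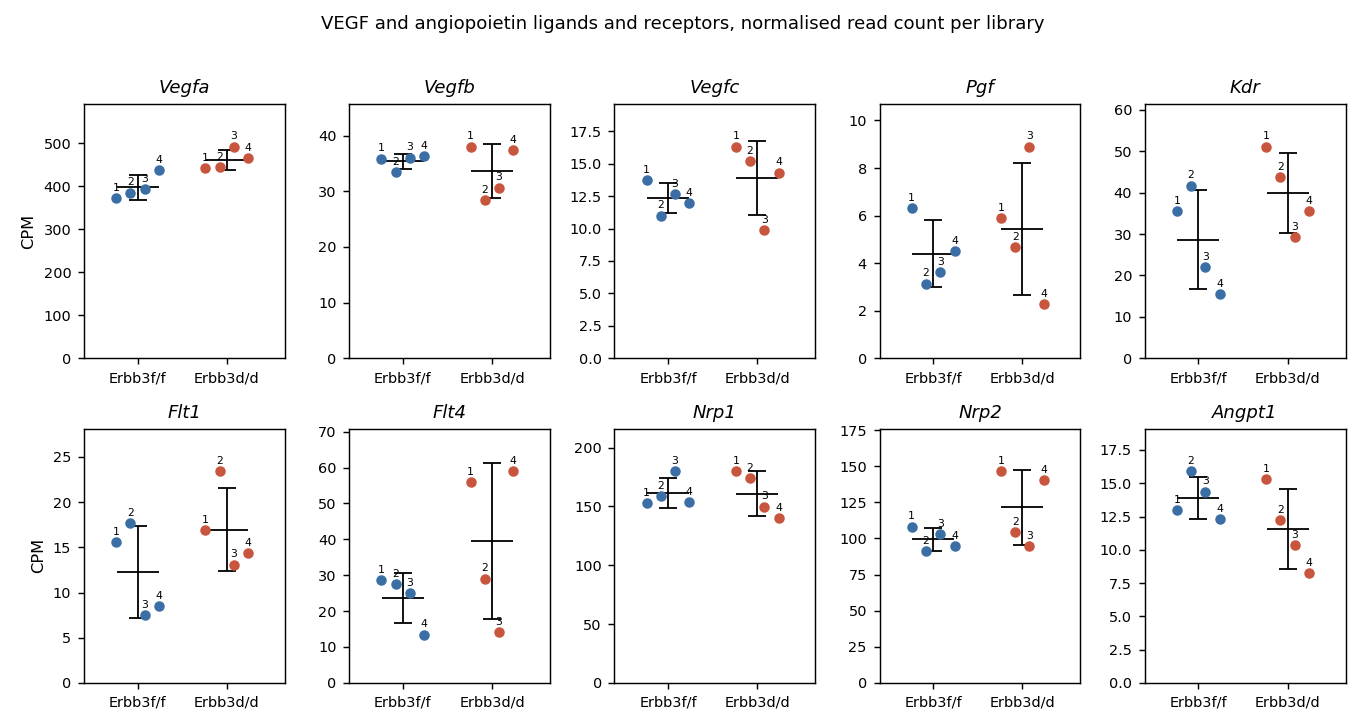
Normalised read count (CPM, linear axes from 0) of the 10 genes in each library, with replicate numbers beside the points, a horizontal line for the mean and bars for ± 1 SD (n = 4 per label). Vegfa is the only panel in which the 4 Erbb3d/d points, 442 to 492 CPM, all lie above the 4 Erbb3f/f points, 372 to 437 CPM.

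Among the ligands, Vegfa had the highest counts and the narrowest interval. In GENCODE vM21 (GRCm38) the gene spans 46016993 to 46032369 of chromosome 17, minus strand, with 8 merged exons. Its level was 372, 385, 393 and 437 CPM in Erbb3f/f replicates 1 to 4 and 442, 444, 492 and 466 CPM in Erbb3d/d replicates 1 to 4, from 3674 to 6242 reads. All 4 libraries labelled Erbb3d/d lay above all 4 labelled Erbb3f/f. Means (± SD, n = 4) were 397 ± 28.2 CPM for Erbb3f/f and 461 ± 23.3 CPM for Erbb3d/d, a log2 fold change of 0.22 (SE 0.09, 95% interval 0.02 to 0.41) or 1.16-fold. The unadjusted p was 0.0332 and the adjusted p 0.394 in edgeR's test, and a two-sided exact permutation test gave p = 0.0286, the smallest that 4 against 4 libraries allow. The 2 nearest libraries across the labels differed by less than counting error, at 437 CPM (exact Poisson 95% interval 423 to 451) from 3866 reads in Erbb3f/f replicate 4 and 442 CPM (429 to 455) from 4494 reads in Erbb3d/d replicate 1. These intervals cover counting error only. The counts are per gene, so the splice forms of Vegfa cannot be told apart.

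The other 3 VEGF family ligands overlapped between the labels. Vegfb, on chromosome 19 at 6982473 to 6987651, encodes VEGF-B, a ligand of the Flt1 receptor. It had 35.8, 33.4, 36.1 and 36.3 CPM in Erbb3f/f replicates 1 to 4 and 38.0, 28.5, 30.7 and 37.4 CPM in Erbb3d/d replicates 1 to 4. The libraries labelled Erbb3d/d lay on both sides of the Erbb3f/f range, and the log2 fold change was -0.07 (SE 0.12, 95% interval -0.34 to 0.20) (edgeR, adjusted p = 0.849). Vegfc, on chromosome 8 at 54077606 to 54187096, had 13.7, 11.0, 12.6 and 12.0 CPM in Erbb3f/f and 16.3, 15.2, 9.85 and 14.3 CPM in Erbb3d/d. Erbb3d/d replicates 1, 2 and 4 were above every Erbb3f/f library and replicate 3 was below them all. For Vegfc the log2 fold change was 0.17 (SE 0.19, 95% interval -0.25 to 0.58) (edgeR, adjusted p = 0.765).

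Pgf, on chromosome 12 at 85166635 to 85177790, encodes placental growth factor, which also binds the Flt1 receptor. It had the fewest reads of the 10 genes. Its level was 6.33, 3.14, 3.61 and 4.52 CPM in Erbb3f/f replicates 1 to 4, from 30 to 65 reads, and 5.90, 4.67, 8.90 and 2.28 CPM in Erbb3d/d replicates 1 to 4, from 26 to 113 reads. The highest level, 8.90 CPM, and the lowest, 2.28 CPM, were both in libraries labelled Erbb3d/d, replicates 3 and 4. For Pgf the log2 fold change was 0.31 (SE 0.40, 95% interval -0.57 to 1.19) (edgeR, adjusted p = 0.799), and it was -0.04 without Erbb3d/d replicate 3.

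Angpt1, on chromosome 15 at 42424723 to 42676977, shares 737 bp of exonic sequence with Gm17473 on the other strand, and in non-directional libraries reads of the pair cannot be told apart. Its level was 13.0, 15.9, 14.4 and 12.3 CPM in Erbb3f/f replicates 1 to 4 and 15.3, 12.2, 10.3 and 8.25 CPM in Erbb3d/d replicates 1 to 4. Erbb3d/d replicates 2, 3 and 4 were below every Erbb3f/f library, while replicate 1 lay within their range. Means (± SD, n = 4) were 13.9 ± 1.60 CPM for Erbb3f/f and 11.5 ± 3.01 CPM for Erbb3d/d, a log2 fold change of -0.27 (SE 0.21, 95% interval -0.73 to 0.19; edgeR, adjusted p = 0.641). With the mean of the epithelial or of the stromal markers as a covariate the log2 fold change of Angpt1 was 0.11 or 0.07.

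Of the receptors, Kdr and Flt1 shared their 2 lowest libraries with the mean of the blood endothelial markers, though not with each marker. Kdr, on chromosome 5 at 75932827 to 75978458, encodes the main signalling receptor for VEGF-A. It had 35.5, 41.7, 22.0 and 15.5 CPM in Erbb3f/f replicates 1 to 4 and 51.1, 43.7, 29.2 and 35.4 CPM in Erbb3d/d replicates 1 to 4. Erbb3f/f replicates 3 and 4 were the lowest of the 8 libraries, and the labels overlapped. Means (± SD, n = 4) were 28.7 ± 12.0 CPM for Erbb3f/f and 39.9 ± 9.55 CPM for Erbb3d/d, a log2 fold change of 0.47 (SE 0.30, 95% interval -0.20 to 1.15). edgeR gave an adjusted p of 0.564, and a two-sided exact permutation test gave p = 0.2. Leaving out one library at a time moved the log2 fold change between 0.27, without Erbb3f/f replicate 4, and 0.72, without Erbb3f/f replicate 2.

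Flt1, on chromosome 5 at 147561604 to 147726011, had 15.6, 17.7, 7.46 and 8.48 CPM in Erbb3f/f replicates 1 to 4 and 16.9, 23.4, 13.1 and 14.4 CPM in Erbb3d/d replicates 1 to 4. Again Erbb3f/f replicates 3 and 4 were the lowest and the labels overlapped. Flt1 had a log2 fold change of 0.46 (SE 0.30, 95% interval -0.21 to 1.13) (edgeR, adjusted p = 0.578). Counts per gene do not separate the membrane receptor from the soluble form. The blood endothelial markers averaged 5.32, 5.30, 4.51 and 4.34 log2 CPM in Erbb3f/f replicates 1 to 4 and 5.17, 5.41, 4.61 and 4.998 log2 CPM in Erbb3d/d replicates 1 to 4, with the same 2 libraries lowest. Pecam1, a general endothelial adhesion molecule, had 66.6, 70.2, 34.6 and 36.5 CPM in Erbb3f/f and 54.4, 70.8, 41.6 and 57.2 CPM in Erbb3d/d. Not every marker of the list had the same lowest libraries. Cdh5 was lowest in Erbb3d/d replicates 3 and 4, at 99.0 and 111 CPM. It had 154 and 133 CPM in Erbb3f/f replicates 3 and 4. Adding the blood endothelial mean as a covariate gave 0.35 for Kdr and 0.33 for Flt1 (log2 fold change). Adding the smooth muscle mean gave -0.09 for Kdr and 0.10 for Flt1.

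Flt4 and Nrp2 were high in the same 2 libraries, Erbb3d/d replicates 1 and 4. Flt4, on chromosome 11 at 49609263 to 49652739, encodes the receptor for VEGF-C and marks lymphatic endothelium in most adult tissues. It had 28.7, 27.5, 25.1 and 13.5 CPM in Erbb3f/f replicates 1 to 4 and 56.0, 29.0, 14.2 and 59.0 CPM in Erbb3d/d replicates 1 to 4. Within the label Erbb3d/d the highest library was 4.16 times the lowest, and the other 2 libraries of this label lay at 29.0 and 14.2 CPM, close to the Erbb3f/f range. Means (± SD, n = 4) were 23.7 ± 6.998 CPM for Erbb3f/f and 39.6 ± 21.6 CPM for Erbb3d/d, a log2 fold change of 0.74 (SE 0.43, 95% interval -0.24 to 1.71). The difference did not pass the test (edgeR, adjusted p = 0.538), and a two-sided exact permutation test gave p = 0.2.

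Nrp2, on chromosome 1 at 62703285 to 62818695, encodes the co-receptor that binds VEGF-C and semaphorin 3F. Its level was 108, 91.4, 103 and 94.5 CPM in Erbb3f/f replicates 1 to 4 and 147, 104, 94.7 and 140 CPM in Erbb3d/d replicates 1 to 4. Erbb3d/d replicates 2 and 3 lay within the Erbb3f/f range. Means (± SD, n = 4) were 99.3 ± 7.70 CPM for Erbb3f/f and 122 ± 25.8 CPM for Erbb3d/d, with a log2 fold change of 0.29 (SE 0.14, 95% interval -0.02 to 0.60; edgeR, adjusted p = 0.463).

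Lymphatic markers were high in the same 2 libraries. Prox1, the transcription factor that defines lymphatic endothelium, had 16.9 and 23.8 CPM in Erbb3d/d replicates 1 and 4 and 4.64 to 10.9 CPM in the other 6 libraries. Lyve1, a hyaluronan receptor of lymphatic vessels and some macrophages, had 106 and 110 CPM against 20.01 to 48.0 CPM. Reln had 37.4 and 51.9 CPM against 5.99 to 26.3 CPM, Mmrn1 had 116 and 170 CPM against 24.0 to 74.1 CPM, and Pdpn had 28.1 and 23.7 CPM against 12.4 to 23.3 CPM. Of the 6 lymphatic markers listed, Ccl21a was at 0 reads in every library, and this gene has near-identical copies that counting can split. The summed level of the list was 77.5 to 173 CPM in the libraries labelled Erbb3f/f and 96.9 to 379 CPM in those labelled Erbb3d/d. All 5 tested members had a log2 fold change above 0, with a median of 0.83, and 0 were called in edgeR's test, which also called none of all genes.

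Of the 14 blood endothelial markers 1, Cldn5, lay above the other 6 libraries in both Erbb3d/d replicates 1 and 4, with 48.4 and 47.3 CPM against 9.72 to 29.7 CPM. Cldn5 encodes an endothelial tight junction protein. Flt1, Pecam1 and the endothelial cadherin Cdh5 did not, and Cdh5 had 118 and 111 CPM there and 99.0 to 275 CPM elsewhere. Kdr was highest of all 8 libraries in Erbb3d/d replicate 1, at 51.1 CPM, and replicate 4, at 35.4 CPM, lay within the range of the other 6. All 7 smooth muscle markers were highest in these 2 libraries, at 3793 and 2316 CPM summed against 803 to 1722 CPM in the other 6. Among the 10 members Flt4, Nrp2 and, by a small margin, Vegfb, at 38.0 and 37.4 against at most 36.3 CPM, lay above the other 6 libraries in both. How many of all tested genes do so was not counted, so nothing is read from the number of members or markers that did. With the lymphatic mean as a covariate, an alternative chosen after seeing the data, the log2 fold change of Flt4 was 0.00 (SE 0.17) and that of Nrp2 was 0.10. With the smooth muscle mean as a covariate it was -0.16 for Flt4 and -0.01 for Nrp2. Without Erbb3d/d replicates 1 and 4 together, also chosen after seeing the data, it was -0.14 for Flt4 and 0.01 for Nrp2. These 2 libraries were the highest of the 8 for both genes, so leaving them out had to lower the log2 fold change. The smooth muscle mean itself differed between the labels, at 7.02 log2 CPM for Erbb3f/f and 7.96 for Erbb3d/d. A fit with that covariate cannot fully separate it from the label. The part of either marker list in these levels was not tested.

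**Figure D2:**
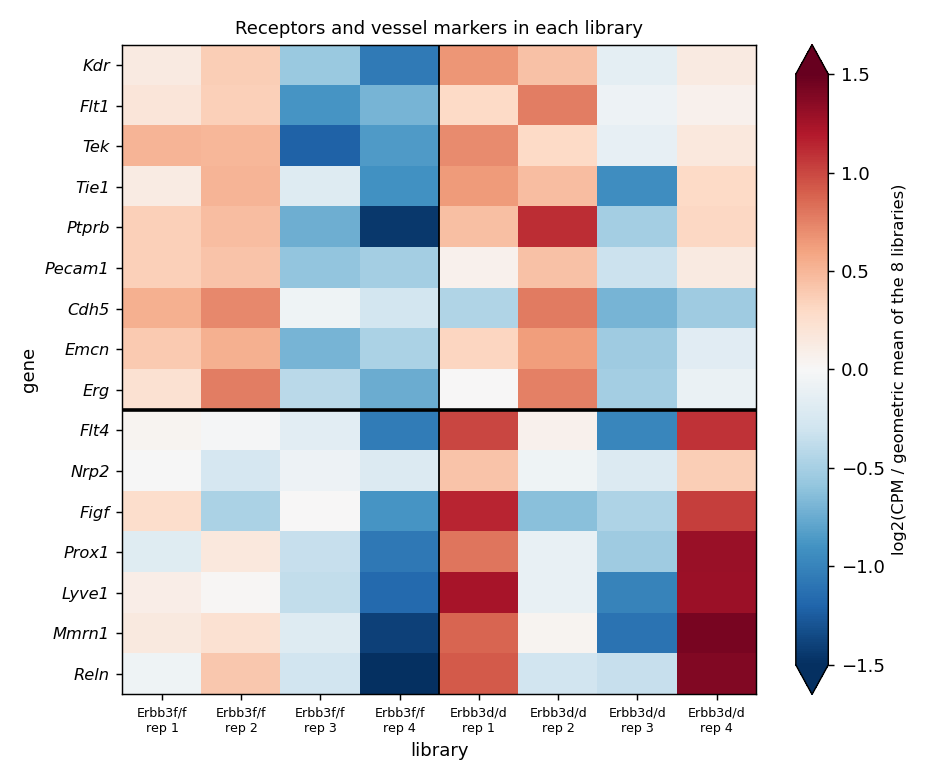
Log2 of each library's CPM over the geometric mean of the 8 libraries (colour scale, clipped at ± 1.5), with the labels separated by the vertical line. Above the thick line are Kdr, Flt1, Tek, Tie1, Ptprb and the blood endothelial markers Pecam1, Cdh5, Emcn and Erg. Below it are Flt4, Nrp2, Figf and the lymphatic markers Prox1, Lyve1, Mmrn1 and Reln. The other markers of both lists, among them Cldn5 and Pdpn, are not drawn. Below the line Erbb3d/d replicates 1 and 4 are the reddest columns, and above it Erbb3f/f replicates 3 and 4 and Erbb3d/d replicate 3 are mostly blue.

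Nrp1 did not follow this pattern. It lies on chromosome 8 at 128358604 to 128503363, encodes the co-receptor of VEGF-A and semaphorin 3A, and shares 37 bp of exonic sequence with Mir1903 on the same strand. Its level was 153, 159, 180 and 154 CPM in Erbb3f/f replicates 1 to 4 and 180, 174, 150 and 140 CPM in Erbb3d/d replicates 1 to 4. The ranges overlapped widely and the means (± SD, n = 4) were 161 ± 12.8 and 161 ± 18.9 CPM. Nrp1 had a log2 fold change of -0.00 (SE 0.10), and its 95% interval, -0.23 to 0.22, was one of the narrower ones among the 10 genes. edgeR gave an adjusted p of 0.993.

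**Figure D3:**
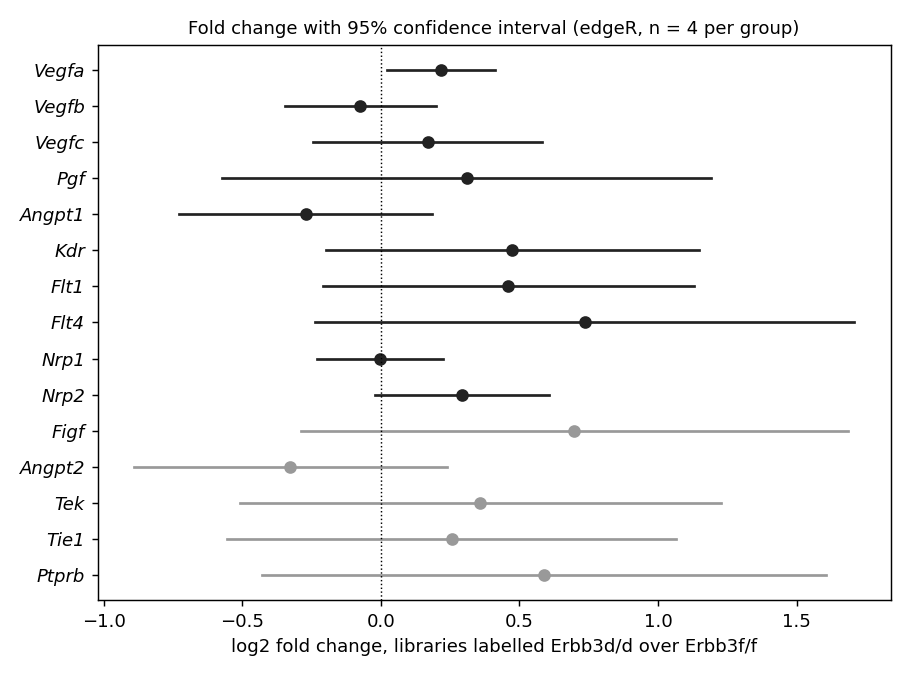
Log2 fold change, libraries labelled Erbb3d/d over Erbb3f/f, with its 95% confidence interval from edgeR (n = 4 per label) for the 10 genes (black) and 5 other ligands and receptors (grey). The dotted line marks no difference, and the interval of Vegfa, 0.02 to 0.41, is the only one of the 15 that does not cross it.

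Levels were set side by side per length, as CPM per kb of merged exons, in the libraries labelled Erbb3f/f. Vegfa was highest at 113 CPM per kb (range 106 to 124), followed by Nrp1 at 44.9 (42.5 to 50.1), Vegfb at 27.6 (26.1 to 28.3) and Nrp2 at 9.57 (8.81 to 10.4). The ranges of these 4 genes did not overlap, nor did that of Nrp2 with the next gene. Vegfc followed at 5.04 CPM per kb, Kdr at 4.84, Flt4 at 3.79, Angpt1 at 3.26, Pgf at 2.12 and Flt1 at 1.12, and from Vegfc down each gene's range overlapped that of its neighbour. In the libraries labelled Erbb3d/d the first 4 genes had the same order, at 131, 44.8, 26.3 and 11.7 CPM per kb. Below them Kdr, at 6.73, and Flt4, at 6.33, stood above Vegfc, at 5.68 CPM per kb. The ligand Vegfa and the co-receptor Nrp1 were thus more abundant per length than the signalling receptors in every library.

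**Figure D4:**
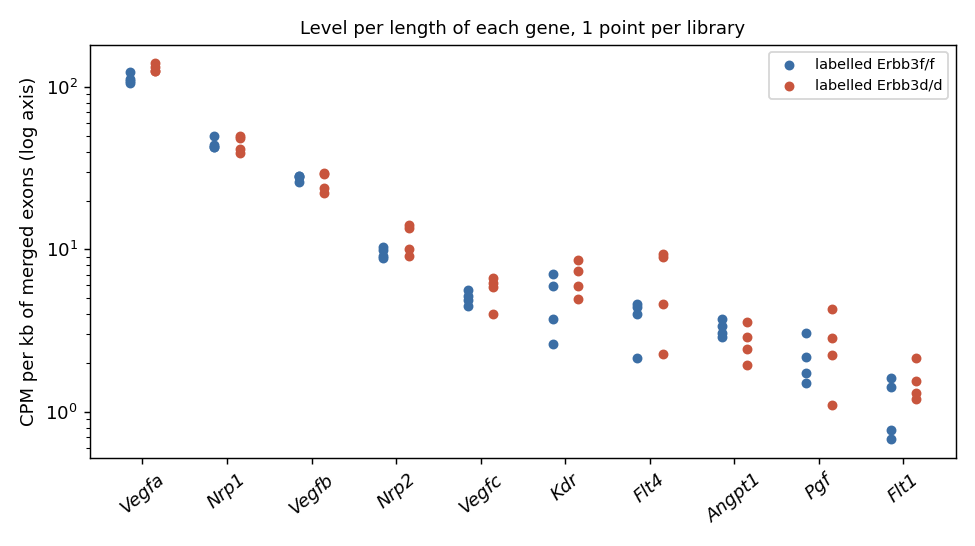
Level per length (CPM per kb of merged exons, log axis) of the 10 genes, 1 point per library, blue for the label Erbb3f/f and red for Erbb3d/d, ordered by the Erbb3f/f mean. Vegfa, Nrp1, Vegfb and Nrp2 are separated from each other, and the 6 genes from Vegfc to Flt1 overlap with their neighbours.

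The other ligands and receptors of these families gave no call either. Of 6 such genes that were counted, 5 could be tested, 4 had a log2 fold change above 0 and the median was 0.36. Figf, the older symbol of Vegfd and the other ligand of the Flt4 receptor, had 15.6, 9.32, 13.0 and 7.01 CPM in Erbb3f/f replicates 1 to 4 and 28.6, 8.40, 9.38 and 26.6 CPM in Erbb3d/d replicates 1 to 4. It was high in the same 2 libraries as Flt4, with a log2 fold change of 0.70 (SE 0.44; edgeR, adjusted p = 0.563). Without those 2 libraries its log2 fold change was -0.33.

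Angpt2, the context-dependent antagonist of angiopoietin-1, had 14.0, 8.90, 9.03 and 8.71 CPM in Erbb3f/f and 7.86, 10.4, 5.28 and 9.04 CPM in Erbb3d/d. The difference was -0.33 on the log2 scale (SE 0.26; edgeR, adjusted p = 0.651), the same sign as that of Angpt1. Tek, the receptor of both angiopoietins, had 18.0, 17.8, 5.42 and 7.01 CPM in Erbb3f/f and 20.6, 15.5, 11.6 and 14.1 CPM in Erbb3d/d. Like Kdr and Flt1 it was lowest in Erbb3f/f replicates 3 and 4, and its log2 fold change was 0.36 (SE 0.39; edgeR, adjusted p = 0.758). Tie1, the partner of that receptor, and Ptprb, the endothelial phosphatase that acts on it, had log2 fold changes of 0.26 (SE 0.36) and 0.59 (SE 0.45). Angpt4 had 0 to 13 reads per library and was not tested.

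Genes around the ligands were read out by the same lists and rules. Of the 2 genes that process VEGF-C, the cofactor Ccbe1 had a log2 fold change of -0.65 (SE 0.46; edgeR, adjusted p = 0.610) and the protease Adamts3 -0.04. Vegfa is a known target of hypoxia-inducible factors. Of 10 oxygen sensing genes 6 had a log2 fold change above 0, the median was 0.01 and 0 were called in edgeR's test, beside a background of 0 called. Egln3, a prolyl hydroxylase that marks these factors for breakdown and is itself induced by them, had 4.29, 3.14, 5.19 and 7.12 CPM in Erbb3f/f replicates 1 to 4 and 9.83, 6.53, 15.7 and 20.4 CPM in Erbb3d/d replicates 1 to 4. Erbb3d/d replicate 2 lay below the highest Erbb3f/f library. The log2 fold change of Egln3 was 1.42 (SE 0.37), and the adjusted p was 0.271 by edgeR and 0.0159 by DESeq2. Without Erbb3d/d replicate 2, the lowest library of that label for Egln3, edgeR gave an adjusted p of 0.0355. That fit called 259 of all tested genes, while leaving out any other single library called 0. Adding the epithelial or the stromal mean as a covariate gave 0.69 or 0.55 for Egln3, and neither passed 0.05 by edgeR.

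Hif3a had a log2 fold change of -1.60 (SE 0.57; edgeR, adjusted p = 0.337) and Hif1a, the most abundant gene of the list, -0.15. Of 12 hypoxia-responsive genes other than Vegfa, 5 had a log2 fold change above 0, 0 had an unadjusted p under 0.05 and the median was -0.02. Among them Ndrg1 had 0.26, the glycolytic regulator Pfkfb3 -0.38 and lactate dehydrogenase Ldha -0.02. The difference of Vegfa, 0.22, thus stood beside a median near 0 for these genes, and whether the 2 differ was not tested.

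The semaphorins and plexins that share the neuropilins with VEGF ligands were read next. All 12 genes listed were tested, 9 had a log2 fold change above 0 and the median was 0.42. At an unadjusted p under 0.05 there were 5 higher and 1 lower, beside 11.6% of all tested genes, and 0 were called in edgeR's test. Of the 7 class 3 semaphorins 6 had a log2 fold change above 0 and 4 had an unadjusted p under 0.05, all higher. Sema3f, the ligand of neuropilin-2, had 17.8, 22.5, 15.9 and 23.4 CPM in Erbb3f/f replicates 1 to 4 and 34.0, 26.2, 38.4 and 52.8 CPM in Erbb3d/d replicates 1 to 4. The labels did not overlap, and means (± SD, n = 4) were 19.9 ± 3.61 CPM for Erbb3f/f and 37.9 ± 11.2 CPM for Erbb3d/d.

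The log2 fold change of Sema3f was 0.93 (SE 0.21), and the adjusted p was 0.215 by edgeR and 0.00777 by DESeq2. Without Erbb3d/d replicate 2, the lowest library of that label for Sema3f, edgeR gave an adjusted p of 0.0306. That fit called 259 of all tested genes, while leaving out any other single library called 0. A two-sided exact permutation test gave p = 0.0286. Adding the epithelial or the stromal mean as a covariate gave 0.41 or 0.38 for Sema3f. The other 3 semaphorins with an unadjusted p under 0.05, named after their values were seen, were Sema3a (0.44, SE 0.13), Sema3b (0.64, SE 0.20) and Sema3c (0.49, SE 0.14). Their adjusted p-values in edgeR's test were 0.294, 0.305 and 0.279. Among the plexins, Plxna1 had 0.03 and Plxna3 -0.39 (SE 0.17; edgeR, adjusted p = 0.426).

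**Figure D5:**
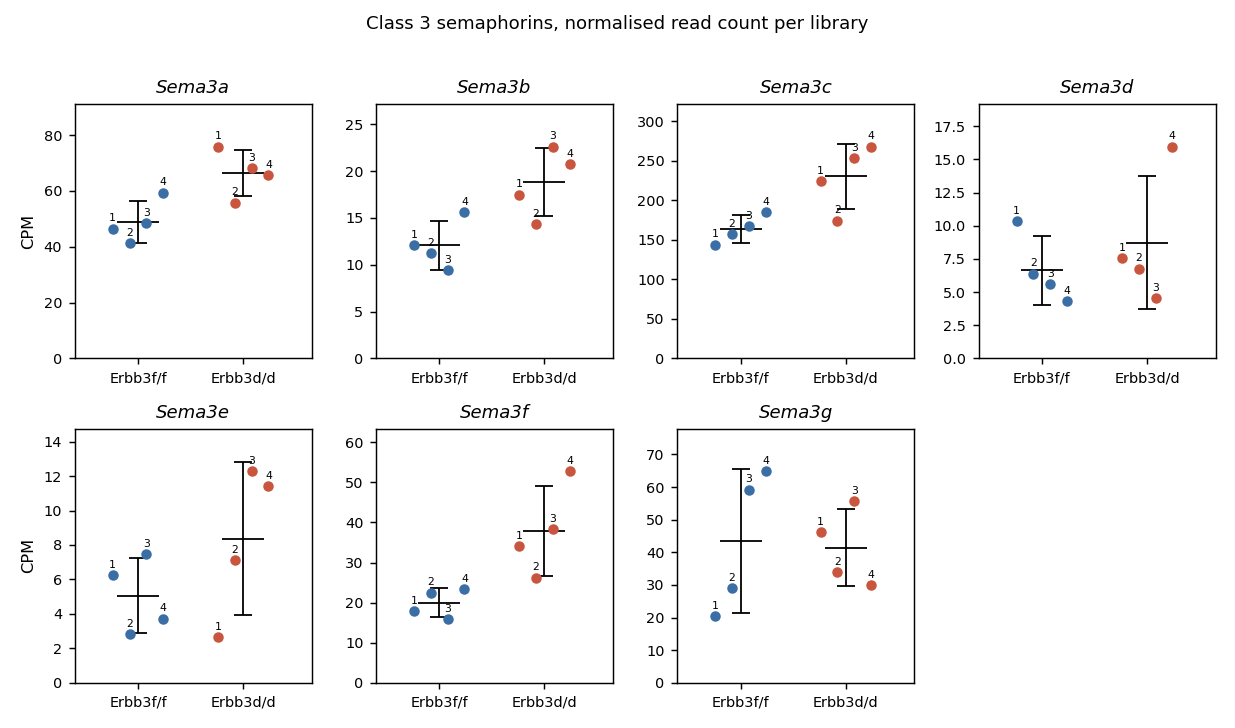
Normalised read count (CPM, linear axes from 0) of the 7 class 3 semaphorins in each library, with the mean as a horizontal line and bars for ± 1 SD (n = 4 per label). Sema3f is the only one in which the Erbb3d/d points, 26.2 to 52.8 CPM, all lie above the Erbb3f/f points, 15.9 to 23.4 CPM.

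Of 7 genes that growing or signalling endothelium expresses 6 had a log2 fold change above 0, and the median was 0.30. At an unadjusted p under 0.05 there was 1, beside 11.6% of all tested genes. That gene was Unc5b, a netrin receptor of sprouting vessels, with 0.39 (SE 0.16; edgeR, adjusted p = 0.395). Its labels did not overlap, beside 2.56% of all tested genes in the higher direction. Apln, a peptide of endothelial tip cells, had -1.12 (SE 0.53; edgeR, adjusted p = 0.461) and Cxcr4 0.30. Of the 14 blood endothelial markers 11 were above 0, with a median of 0.11. Plvap, the diaphragm protein of leaky capillaries, had the smallest p in the higher direction, with 0.77 (SE 0.27; edgeR, adjusted p = 0.337), and Cd34 the smallest in the lower direction, with -0.56 (SE 0.27). Of 7 pericyte markers 5 were above 0, with a median of 0.23, 0.23 for Pdgfrb and -0.59 for Rgs5.

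The median log2 fold changes of the smooth muscle, lymphatic, epithelial and stromal lists lay farther from 0 than that of the 10 genes. Their values stand beside every member's difference, and the lymphatic median of 0.83 was given above. Over all tested genes 11.6% had an unadjusted p under 0.05 in edgeR's test, and DESeq2 called 1.78% of the genes it tested. All 7 smooth muscle markers had a log2 fold change above 0 and an unadjusted p under 0.05, with a median of 1.06. The smallest p was that of Cnn1 at 1.19 (SE 0.32; edgeR, adjusted p = 0.281 and 0.00672 in DESeq2, which called 2 of the 7). Of 10 epithelial markers 8 were above 0, all 8 with an unadjusted p under 0.05, with a median of 0.63. The smallest p was that of Krt19 at 0.62 (SE 0.17; edgeR, adjusted p = 0.281 and 0.0421 in DESeq2, which called 4 of the 10). Of 11 stromal markers 9 were below 0, 5 of them with an unadjusted p under 0.05, and the median was -0.32. The smallest p was that of Pdgfra at -0.56 (SE 0.13; edgeR, adjusted p = 0.206 and 0.00544 in DESeq2, which called 2 of the 11). Of 6 immune markers tested 2 were above 0, with a median of -0.12. The log2 fold change of Vegfa ran from 0.15 with the epithelial mean as a covariate to 0.30 with the smooth muscle mean, and it was 0.18 with the stromal mean.

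Ccbe1, Hif1a, Ndrg1, Plxna1, Cd34, Sox17, Prox1, Reln, Tagln, Pdgfra, Cftr and Ccdc175 each overlap exons of an antisense gene in the annotation, whose reads their counts may include.

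Finally, the genes whose levels across libraries were most like those of Vegfa and Kdr were listed among 12452 genes with a mean of at least 5 CPM. Likeness was measured by Pearson's r of log2 CPM over the 8 libraries, which share their labels and their scaling, so r is a description only. For Vegfa these were Gm16039 (r = 0.989, Spearman's rho = 0.976), Cftr (r = 0.977, rho = 0.976) and Kank1 (r = 0.973, rho = 0.929). Without the 2 libraries farthest from the median of Vegfa, Erbb3f/f replicates 1 and 2, r was 0.990, 0.954 and 0.933. Cftr, an epithelial chloride channel gene, averaged 19.4 ± 8.29 CPM for Erbb3f/f and 42.1 ± 17.4 CPM for Erbb3d/d (± SD, n = 4). For Kdr these were Ccdc175 (r = 0.960, rho = 0.952), Gm13889 (r = 0.960, rho = 0.976) and Dyrk1b (r = 0.951, rho = 0.881). Without Erbb3f/f replicates 3 and 4, the farthest from its median, r was 0.854, 0.896 and 0.737.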

How the data were processed

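Polyadenylated RNA of 8 libraries was analysed, 4 per genotype label, grouped by title. Per the labels' protocols, TRIzol was used for extraction, and the non-directional libraries gave paired reads of 150 bp. The authors deposited raw read counts per gene symbol, 1 table per library, with no normalization. The submitters' processing notes name HISAT2, SAMtools, HTSeq and StringTie and the builds mm10 and GRCm38. Versions, roles, the annotation and how reads were counted are not given in the sources used here. The 5 lines of each table that name no gene, 70.9% to 73.0% of all entries, were left out of library sizes and tests.

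The analysis used edgeR 4.0.16 and limma 3.58.1 in R 4.3.3. The filter filterByExpr left 14598 genes, scaled by TMM. Differences between labels were tested by edgeR's quasi-likelihood test with Benjamini-Hochberg adjustment over all tested genes at 0.05, after the procedure was tested on simulated data. A two-sided exact permutation test of single genes was run on log2(CPM + 0.5) over 70 assignments. It covered each of the 10 genes and each gene of the other lists, and its p-values are unadjusted. Replicates of 1 label differed by more than sampling noise in every pair, so none was counted as a duplicate. Positions and exon lengths came from GENCODE vM21 (GRCm38, basic set), which matched 21738 of 23420 symbols (92.8%) to 1 gene, and promoter windows from RefSeq, using Python 3.11.15 and pandas 2.3.3.

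The 10 genes and all 13 lists were chosen with earlier results of these data known. The text names the 10 genes, all other ligands and receptors listed, the gene of each other list with the smallest p in each direction and with the highest mean, the 3 genes most like Vegfa and Kdr, and Erbb3. Other genes named, such as Pecam1, Cdh5, Cldn5, further lymphatic markers, Adamts3 and 3 semaphorins, were chosen after their values were seen. Alternatives were DESeq2 1.42.0, limma-voom, other scalings, no count filter, a replicate block, marker covariates, a larger pseudocount and leaving out each library. The lymphatic and stromal covariates and the fit without Erbb3d/d replicates 1 and 4 were added after seeing the data.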

Additional observations from a re-analysis of the deposited data

Results flagged for a closer look

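The level of Vegfb in Erbb3f/f replicate 2 was 33.4 CPM, from 319 reads, and the other 3 libraries of its label lay close together, the nearest at 35.8 CPM. Among the libraries labelled Erbb3d/d 2 were lower still, at 28.5 and 30.7 CPM. The gap took 0.845 of the range of the 4 libraries. This was 1 of 34 groups of 4 libraries examined, where 1.7 would be expected at 1 in 20.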

How the results depend on the processing

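Members called by edgeR, DESeq2 or limma-voom numbered 0 under each of the 20 alternatives, with adjusted p-values from 0.179 to 1. Of 200 log2 fold changes of members under alternatives 180 kept their direction and 20 turned, and of 660 for the other 33 named genes 27 turned and 13 came under 0.05. The cause of these turns was not tested.

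Genes called over all tested numbered 0 with all 8 libraries, 270 by DESeq2, 171 with the blood endothelial covariate, 52 with the replicate block and 0 to 259 when each library was left out, the 259 being without Erbb3d/d replicate 2. The replicate numbers share no stated animal or batch. Deviations of same-numbered libraries correlated at 0.221, 0.159, 0.0959 and 0.145, and those of replicates 1, 2 and 3 correlated best with their own number, while that of replicate 4 did so with 3. With the replicate block 0 members were called, while the adjusted p of Egln3 was 0.0478 and that of Cnn1 0.0457. The log2 fold change of Kdr was then 0.54 (SE 0.18; edgeR, adjusted p = 0.217) and that of Flt1 0.52 (SE 0.18; edgeR, adjusted p = 0.233). With Vegfa, 3 members then had an unadjusted p under 0.05, against 1 without the block. The share of all tested genes under 0.05 with the block was not counted, so nothing is read from this number.

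Nrp1 was at 0.00 by DESeq2, RLE scaling, no count filter and the smooth muscle covariate, and at 0.25, 0.20 and 0.01 with the epithelial covariate, with the stromal covariate and without Erbb3d/d replicates 1 and 4. The smooth muscle covariate also turned Vegfc (-0.06), Kdr (-0.09), Flt4 (-0.16), Nrp2 (-0.01), Figf (-0.27), Tek (-0.50), Tie1 (-0.38), Ccbe1 (0.23), Mmrn1 (-0.17), Tagln (-0.03) and Dcn (-0.03). The epithelial covariate turned Angpt1 (0.11), Ccbe1 (0.40) and Plxna1 (-0.09), and the stromal covariate Angpt1 (0.07), Plxna1 (-0.12), Cxcr4 (-0.32) and Col3a1 (0.20). The lymphatic covariate turned Flt4 (0.00), Figf (-0.04), Tie1 (-0.11), Ldha (0.02) and Mmrn1 (-0.12). Without Erbb3d/d replicates 1 and 4, Flt4 was at -0.14, Figf -0.33, Tie1 -0.05, Ndrg1 -0.04, Cxcr4 -0.08, Prox1 -0.02 and Mmrn1 -0.24. Leaving out one library turned Nrp1 (-0.06 to 0.06), Vegfb (-0.14 to 0.00), Pgf (-0.04 to 0.57), Ldha (-0.09 to 0.05) and Plxna1 (-0.01 to 0.12). Depth limits Pgf most, with 26 to 113 reads per library.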
